A study of Daphnia magna with 80 samples.

Results

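The comparison described here sets females of the water flea Daphnia magna at 30-35 days of age against females at 20-25 days. Its libraries were chosen by the sex and age in the sample titles, and make up 11 of the 80 sequenced samples of the series. The 30-35 day group held 3 libraries of 35 days and 3 of 30 days, and the 20-25 day group held 3 libraries of 25 days and 2 of 20 days. A further library titled as a 20-day female is marked in the labels as mislabelled and was left out. All animals were of the strain Bham2, kept at 20 °C on green algae without any treatment, and were frozen whole when the brood pouch was empty. The series follows expression with age in females and males of that same strain. Whether the replicates are separate cultures, and how many animals each holds, is not in the labels, so the p-values below speak of the spread among these libraries, part of which may be technical.

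Daphnia females usually reproduce without mating. In each adult moult cycle a clutch of eggs is provisioned with yolk in the ovary, laid into the brood pouch under the carapace and released as free-swimming young just before the next moult, so that RNA of a whole female holds ovary, fat cells, gut and cuticle-forming tissue in changing proportions. Sons are produced by the same mothers without any genetic difference from daughters. Because whole animals were sequenced, fewer cells of a type and less RNA per cell cannot be told apart.

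Gene counts per library ran between 12915276 and 26994907 in the 11 females (median 19663197), a depth at which counting error matters mainly for rare transcripts. The gene IDs of the files carry no names, and 0 of 26646 matched the reference table, so genes are given by ID, at most 2 in each direction per comparison, and no function is assigned to them. Groups of genes were formed from the other libraries of the series in place of named pathways: 2914 male-biased and 1888 female-biased genes (at least 2-fold between 37 males and the 28 females of other ages), and genes rising or falling with age in those 28 females. Synthetic spike-in RNA took 0.422% to 1.13% of the counts. The ratio of 2 of its molecules, SIRV7 over SIRV1, was used to divide the libraries of the series into 2 clusters. The cut, at -0.101 on the log2 scale, was placed at the widest gap away from the extremes. Such a rule always gives 2 groups, and whether they are distinct was not tested. Replicates 1 and 3 of 35 days and replicate 3 of 30 days are in the cluster that is smaller among these 11 libraries. The other 3 libraries of 30-35 days and all 5 of 20-25 days are in the other, called the larger cluster below. Larger refers to these 11 libraries alone, since over the whole series that cluster is the smaller.

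One library stood apart before any comparison was made. Replicate 3 of 30 days lay at 110.3 on the first principal component, which held 34.5% of the variance of the 2000 most variable genes, while each of the other 10 libraries lay between -19.6 and -1.3. Its median root mean square difference of log2 CPM (CPM, counts scaled to a common library total, with library sizes set by the trimmed mean of M values) to the other libraries was 1.393, against 0.797 to 1 for each of the others. Distances and some counts of calls are given with and without it, and the ranges over left-out libraries include its removal. Sets of genes chosen by single steps of age were not redone without it.

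**Figure D1:**
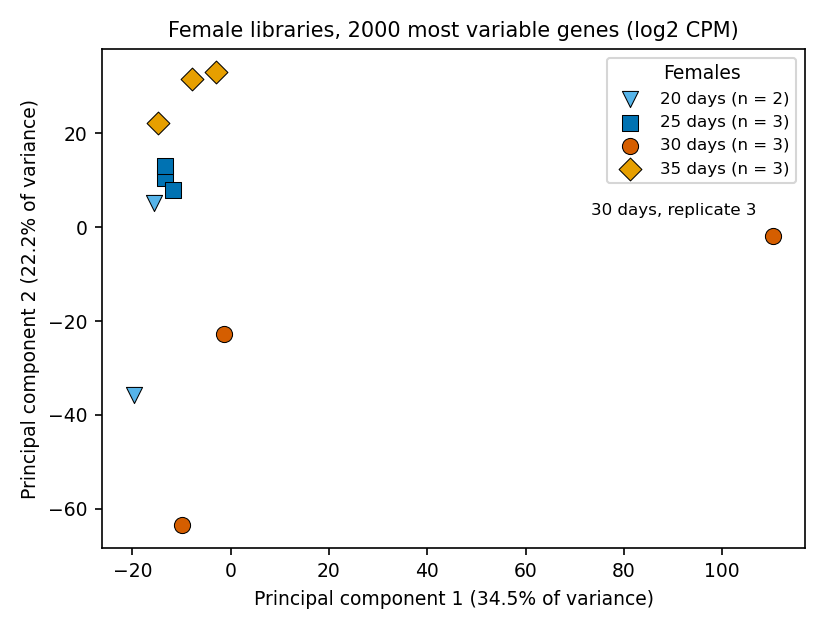
Each point is 1 of the 11 female libraries on the first and second principal components of log2 CPM of the 2000 most variable genes. Replicate 3 of 30 days lies at 110.3 on the first component, and along the second the 35-day libraries lie at 22.2 to 33.1, the 30-day libraries at -63.5 to -1.8, with the 25- and 20-day libraries between -35.7 and 13.1.

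As pooled groups, females of 30-35 days and of 20-25 days differed little relative to the spread inside each group. With edgeR's quasi-likelihood test and Benjamini-Hochberg adjustment, 0 of 15366 genes passed an adjusted p of 0.05 (0% called), the smallest adjusted p was 0.14, and 936 genes (6.09%) had an unadjusted p under 0.05. Limma-voom also called 0 genes, with 1714 at an unadjusted p under 0.05, whereas DESeq2 called 79, of which 22 were higher and 57 lower at 30-35 days. Most changes were small: 95.8% of the genes lay within 2-fold, 642 lay beyond it and 89 beyond 4-fold. In 76 of the 15366 genes the 6 later and the 5 earlier libraries did not overlap in CPM, 33 of them higher and 43 lower at 30-35 days. Of the 76, 26 differed at least 2-fold. Of the 462 arrangements of the libraries, 2 separate a given gene fully, 1 in each direction, so some of so many genes separate without any effect of age. The 76 are a description, and whether they exceed the number that arises in this way was not tested. The count depends on which libraries enter: leaving out replicate 2 of 35 days gave 1 call, replicate 1 of 30 days 3 calls and replicate 2 of 20 days 5 calls. Library sizes set by the spike-in gave 0 higher and 17 lower calls, and moved the median log2 change of all genes to -0.47, against 0.02 with the usual scaling.

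The 4 genes with the smallest p, 2 in each direction, were picked after their values were seen, and show what the nearest approach to a step looks like. APZ42_014320 had 4.78, 5.69 and 6.48 CPM at 35 days and 8.02, 3.8 and 4.53 CPM at 30 days, against 48, 39.3 and 40.2 CPM at 25 days and 16.5 and 10.7 CPM at 20 days. The groups did not overlap, and within 20-25 days the 25-day libraries were the high ones. Its log2 change was -2.46 ± 0.36 (SE, n = 6 and 5; adjusted p = 0.14, edgeR). APZ42_014304 had nearly the same profile, with 4.07 ± 1.28 CPM at 30-35 days and 22.7 ± 11.8 CPM at 20-25 days (SD, n = 6 and 5), and a log2 change of -2.45 ± 0.37 (edgeR adjusted p = 0.14). In both genes the adjusted p fell below the threshold without replicate 2 of 20 days (0.0106 for each), and over all alternatives it ran between 1.68e-07 and 1 for APZ42_014320 and between 3.12e-07 and 1 for APZ42_014304.

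In the other direction APZ42_024928, a male-biased gene, had 156, 179 and 200 CPM at 35 days and 271, 269 and 228 CPM at 30 days. In the earlier group it had 83.7, 128 and 125 CPM at 25 days and 118 and 108 CPM at 20 days. All 6 later libraries lay above all 5 earlier ones, the 30-day libraries highest, with a log2 change of 0.96 ± 0.19 (edgeR adjusted p = 0.429). APZ42_020113 averaged 26.9 ± 8.00 CPM at 30-35 days and 12.6 ± 2.2 CPM at 20-25 days (SD, n = 6 and 5), again without overlap and highest at 30 days (log2 change 1.11 ± 0.22, edgeR adjusted p = 0.429).

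The single ages inside the 2 groups behaved very differently from the pooled groups. In a fit of the 11 libraries with 4 ages, 16785 genes were tested by edgeR. Between 35 and 30 days, ages that the pooled comparison puts together, 2319 genes (13.8%) passed an adjusted p of 0.05, 1216 of them higher (7.24%) and 1103 lower (6.57%) at 35 days. Between 30 and 25 days 134 genes passed (0.798%), 108 higher (0.643%) and 26 lower (0.155%) at 30 days, and between 25 and 20 days 29 passed (0.173%), 3 higher (0.0179%) and 26 lower (0.155%) at 25 days. The biological coefficient of variation was 40.3% with 2 age groups and 34.9% with 4 ages.

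**Figure D2:**
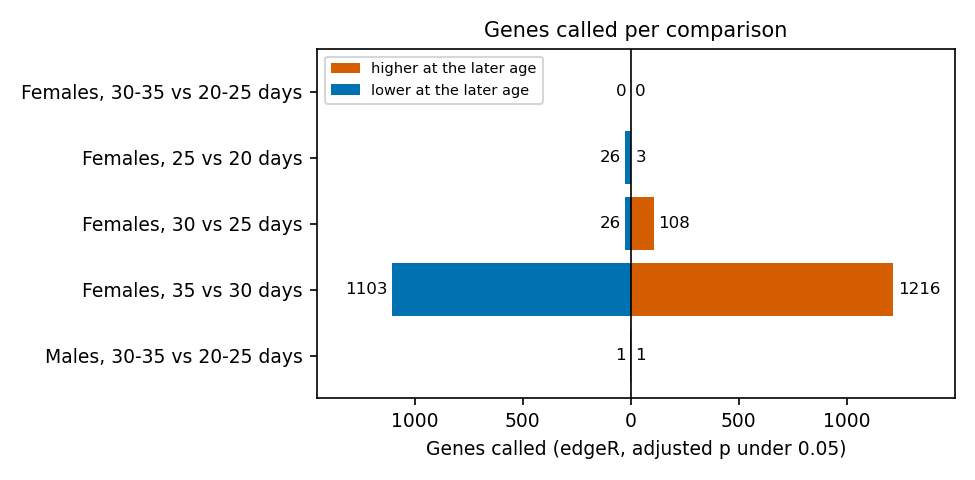
Bars give the number of genes called by edgeR (adjusted p under 0.05) as higher (right) or lower (left) at the later age of each comparison. The pooled female comparison called 0 genes, while 35 against 30 days called 1216 higher and 1103 lower.

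Libraries of 35 and 30 days were also far apart as wholes. The root mean square difference of log2 CPM had a median of 1.156 over the 9 pairs of a 35-day with a 30-day library, against 0.889 over the 30 pairs of a 30-35 day with a 20-25 day library and 0.723 over the 10 pairs of the same age. Without replicate 3 of 30 days those medians were 1.052, 0.881 and 0.683. Within 30 days the median of the 3 pairs was 1.282, above that of 35 with 30 days, and the 1 pair without that replicate lay at 0.74. Pairs of 25 with 20 days had a median of 0.793. The 3 libraries of 25 days were the most alike, at 0.504 to 0.56.

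The 35 against 30 day calls were many under each alternative tried, but their number moved. Leaving out single libraries gave between 1325 and 2389 genes, with 1343 without replicate 1 of 35 days, 1325 without replicate 3 of 35 days and 1374 without replicate 1 of 30 days. Among the 8 libraries of the larger spike-in cluster, where 1 library of 35 days faced 2 of 30 days and the lone library was assumed to vary like the other ages, 1091 genes were higher and 892 lower. With library sizes set by the spike-in 206 were higher and 529 lower, and the median of all genes was -0.25, against -0.05. The smaller counts of the other steps rest on single libraries. For 30 against 25 days 9 genes passed without replicate 1 of 25 days, 50 without replicate 2 of 25 days and 46 without replicate 3 of 25 days. The same comparison had 76, 43 and 269 calls without replicates 1, 2 and 3 of 30 days, and 71 and 70 without replicates 1 and 3 of 35 days. For 25 against 20 days the count was 0 without replicate 1 of 25 days, 17 without replicate 3 of 25 days, 19 without replicate 2 of 20 days, 18 without replicate 1 of 35 days and 116 without replicate 2 of 35 days. Spike-in library sizes gave 8 higher and 700 lower calls for 25 against 20 days, with the median of all genes at -0.78, against -0.01.

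The direction of the 35 against 30 day difference followed sex bias measured in the other libraries. Of 2304 male-biased genes tested, 6 were higher (0.26%) and 356 lower (15.45%) at 35 days (median log2 change -0.77). Of 1878 female-biased genes 603 were higher (32.11%) and 65 lower (3.46%, median 0.67). Over all 16785 genes 7.24% were higher and 6.57% lower, and the median was -0.05. Male-biased genes made up 32.3% of the genes lower at 35 days and female-biased genes 49.6% of those higher, against 13.7% and 11.2% of all genes tested. Of 32 genes almost limited to females (at least 5 CPM in females and under 0.1 CPM in males, by the medians of the other libraries), 13 were higher at 35 days (40.62%) and 0 lower, against 7.24% and 6.57% of all genes tested. The summed CPM of those 32 genes was 1120, 1680 and 1360 in the 35-day libraries and 613, 717 and 726 in the 30-day libraries, against 1130, 1260 and 1140 at 25 days and 1130 and 1790 at 20 days. The 30-day libraries were thus below each of the other 8. With spike-in library sizes 272 male-biased genes were lower and 181 female-biased genes higher. The male-biased count was 157 without replicate 1 of 35 days, 166 without replicate 3 of 35 days and 186 without replicate 1 of 30 days. It was 232 with limma-voom and 181 within the larger spike-in cluster. The signs of the medians of both sex-biased lists were kept under each scaling, tool and left-out library tried.

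The lists of age-related genes moved the same way. Of 3164 genes falling with age in the 28 other females, 969 were higher and 26 lower at 35 than at 30 days (median 0.52), and of 3271 genes rising with age, 8 were higher and 567 lower (median -0.45), where 7.24% of all genes tested were higher and 6.57% lower. Spike-in library sizes gave 183 higher and 8 lower for the falling list, and 4 higher and 285 lower for the rising list. Without replicate 1 of 30 days 600 genes of the falling list were higher, and the lower genes of the rising list numbered 308, 320 and 336 without replicate 1 of 35 days, replicate 3 of 35 days and replicate 1 of 30 days. Genes that fall with age elsewhere were thus mostly higher at the older of the 2 ages. Across 16313 genes the log2 change between 35 and 30 days correlated at r = -0.481 (Spearman's rho -0.548) with the age slope in the 28 other females, which share no library with it. Genes are not independent replicates, and no test goes with this value. In the pooled comparison of 30-35 with 20-25 days the same lists had medians of 0.1 (male-biased), -0.01 (female-biased), 0.06 (rising with age) and 0.02 (falling with age), with 0 genes called in any of them.

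Of 2304 male-biased genes, 94 were higher and 0 lower at 30 than at 25 days (median 0.38), where 0.643% of all genes tested were higher. They were 94 of the 108 genes higher at 30 days, while male-biased genes were 13.7% of all genes tested. That count was 5, 42 and 22 without replicates 1, 2 and 3 of 25 days, 50, 33 and 162 without replicates 1, 2 and 3 of 30 days, and 50 and 53 without replicates 1 and 3 of 35 days. DESeq2 called 220 higher and 12 lower, and limma-voom 220 higher and 18 lower. Of 1878 female-biased genes, 1 was higher and 9 lower (median -0.26), and 0 were lower without replicate 2 of 30 days or without any 1 library of 25 days.

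Between 25 and 20 days 7 male-biased genes were lower and 0 higher (0.3% lower, median -0.07), and of the female-biased genes 1 was higher and 12 lower (0.64% lower, median -0.36), where 0.155% of all genes tested were lower. Both lists had 0 calls without replicate 1 of 25 days. The median of the male-biased list was 0.25 without replicate 1 of 20 days. With spike-in library sizes 144 male-biased and 305 female-biased genes were lower, at medians of -0.87 and -1.1, where the median of all genes was -0.78.

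A score of sex-biased genes sums this up per library. It takes male-biased genes (mean log2 CPM) minus female-biased genes, set to 0 for the mean of the 28 other females and 100 for the mean of the males. The scores were -38.4, -45.9 and -29.5 at 35 days and 20.4, -9.1 and -18.2 at 30 days. They were -24.7, -23.3 and -18.5 at 25 days and -11.1 and -40 at 20 days. The 3 libraries of 30 days lay above the 3 of 35 days and above each 25-day library, and of the 20-day libraries 1 lay among the 35-day values and 1 among the 30-day values. The mean was -20.1 ± 23.9 at 30-35 days and -23.5 ± 10.6 at 20-25 days (SD, n = 6 and 5; two-sided exact permutation test, p = 0.794, Benjamini-Hochberg adjusted over 6 measures 0.794), so the pooled groups differed by less than their spread.

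**Figure D3:**
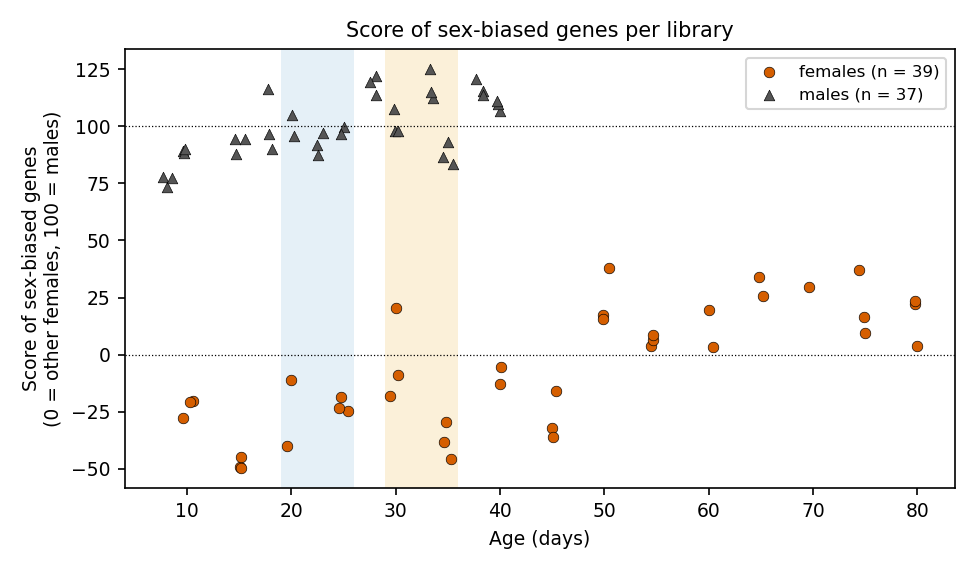
Each point is 1 of the 76 libraries with a group, with age in days (points spread sideways by chance to part them) and the score of sex-biased genes, where 0 is the mean of the 28 other females and 100 the mean of the males. The bands mark 20-25 and 30-35 days. Female scores at 30 days run between -18.2 and 20.4 and at 35 days between -45.9 and -29.5.

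The largest differences between 35 and 30 days came in genes that were close to silent at 35 days. In all, 82 genes were called at least 16-fold lower, and they were chosen by that contrast, so their values at these 2 ages are a description. Of the 82, 72 had under 5 CPM in all 3 libraries of 35 days, and 36 had at least 5 CPM in all 3 libraries of 30 days, where 17, 40 and 45 genes were under 5 CPM in replicates 1, 2 and 3. At 35 days 10 had no count at all, and 27 had at most 3 counts in sum, for which the fitted fold is no measured size. Their median was 0.158, 0.17 and 0.211 CPM at 35 days and 35.2, 5.39 and 4.3 CPM at 30 days. At 25 days, an age outside that contrast, it was 0.255, 0.19 and 0.338 CPM, and at 20 days 3.97 and 0.409 CPM. By this median the 25- and 35-day libraries lay below 0.338 CPM or at it, and the 30-day libraries above 4 CPM, with replicate 1 of 20 days just under the lowest of them and replicate 2 just over the highest of 25 days. Of these 82 genes, 70 (85.4%) were male-biased and 5 (6.1%) female-biased in the other libraries, against 13.7% and 11.2% of all genes tested.

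APZ42_014845 shows this pattern at high expression. It had 0.946, 1.27 and 0.211 CPM at 35 days and 908, 622 and 248 CPM at 30 days (log2 change -9.43 ± 0.71, edgeR adjusted p = 0.000148). At 25 days it had 0.56, 0.856 and 0.451 CPM and at 20 days 59.9 and 31.2 CPM. No library of 30 days overlapped with any of 25 or 35 days, and the 20-day libraries lay between. The change between 30 and 25 days was 9.99 ± 0.73 on the log2 scale (edgeR adjusted p = 0.000158), and both calls held under each alternative tried. In males of 20, 25, 30 and 35 days the gene lay between 322 and 843 CPM, and over all 37 males between 211.71 and 1133.1 CPM.

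Of the other genes named for these steps, APZ42_030567 and APZ42_021088 had the same pattern at lower levels. APZ42_030567 had 2, 1 and 0 counts at 35 days against 1403, 277 and 94 counts at 30 days. The ratio of CPM at 35 over 30 days was 0.00157 (exact 95% counting interval 0.000324 to 0.00461), and edgeR gave an adjusted p of 0.00296, which limma-voom did not pass (0.133, within 9.3e-07 to 0.133 over the alternatives). APZ42_021088 had 209, 46.9 and 18.4 CPM at 30 days and 0.0509, 0 and 0.113 CPM at 25 days (log2 change 10.26 ± 1.4, edgeR adjusted p = 0.0109). It had 0.105, 0.382 and 0 CPM at 35 days and 4.08 and 0.337 CPM at 20 days. Its 30 against 25 day call was lost without replicate 1 of 25 days (adjusted p = 0.109), replicate 2 of 25 days (0.0511) or replicate 3 of 25 days (0.0568), in a range of 6.03e-09 to 0.109 over the alternatives.

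**Figure D4:**
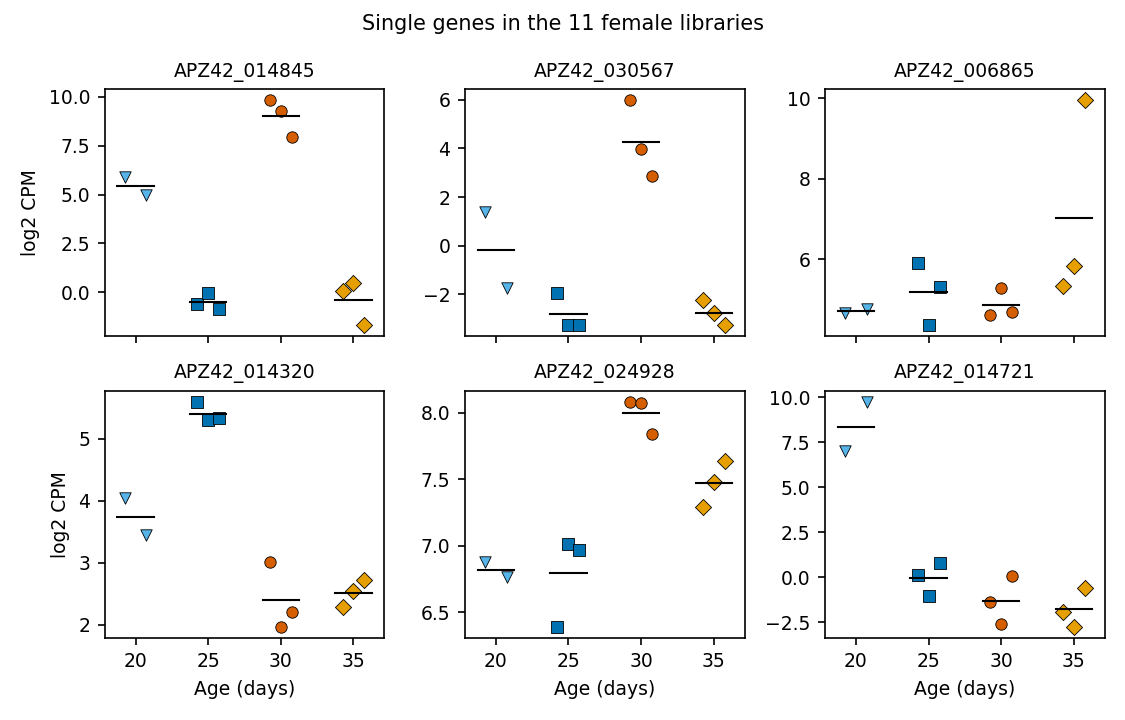
Log2 CPM of 6 single genes in the 11 female libraries by age, with 1 point per library and a bar for the mean of each age. APZ42_014845 and APZ42_030567 are highest at 30 days, APZ42_014721 is high at 20 days alone, and APZ42_006865 stands out in 1 library of 35 days at 9.95.

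The other females of the series, which had no part in choosing the 82 genes, also had both low and high values of this set. The median CPM of the set was 5.5 to 6.24 at 10 days, 0.206 to 0.254 at 15 days, 7.79 to 11.5 at 40 days and 0.187 to 0.514 at 45 days. At 10 and 40 days each library was thus above 5 CPM, and at 15 and 45 days each was under 1 CPM. At later ages most libraries were high, between 5.32 and 22.1 CPM at 50 days and between 7.54 and 21.2 CPM at 80 days, but 55 days held both 0.329 and 11.4 CPM. Of the 28 other females 18 were at or above 5 CPM and 7 under 1 CPM. In each of the 37 males the median was at or above 5 CPM (5.57 to 98.5 CPM). Over the 28 other females the 3321 pairs of these genes had a median correlation of log2 CPM of 0.606, and of 0.319 over the 37 males, given as descriptions.

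**Figure D5:**
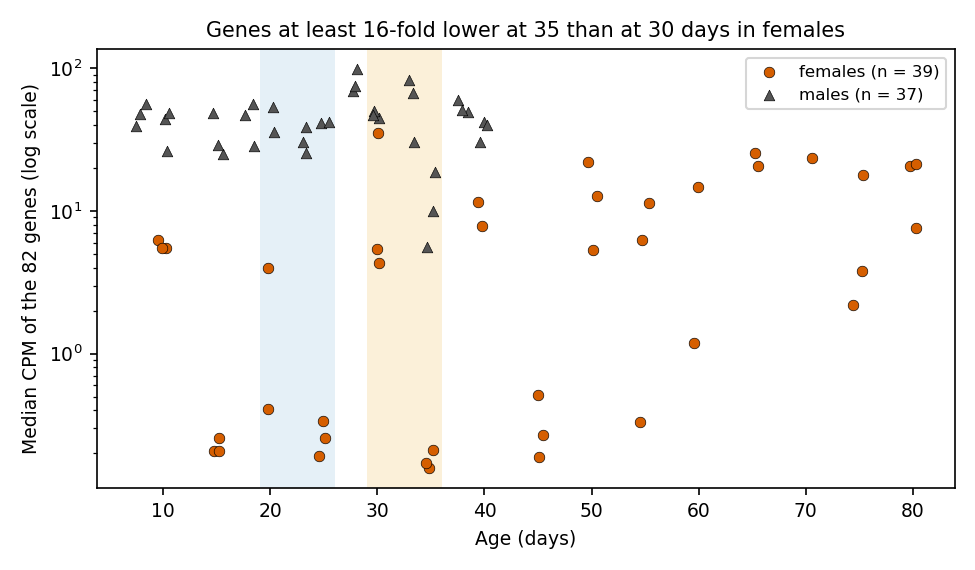
The median CPM (log axis) of the 82 genes called at least 16-fold lower at 35 than at 30 days, against age in days, with 1 point for each of the 76 libraries (spread sideways by chance) and bands at 20-25 and 30-35 days. Females lie under 1 CPM at 15, 25, 35 and 45 days and above 4 CPM at 10, 30 and 40 days, and males lie between 5.57 and 98.5 CPM.

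All 2319 genes that differed between 35 and 30 days place the other ages on the same scale. Each library was given its mean log2 CPM of the 1103 lower genes minus that of the 1216 higher genes, with 0 set to the mean of the 35-day and 100 to the mean of the 30-day libraries. The genes were chosen by the contrast of 35 with 30 days, which tends to put other ages in between. Positions on this scale are therefore a description. On it the 25-day libraries lay at 50, 52.6 and 58.6 and the 20-day libraries at 58.2 and 27.8. Among females of other ages the 15-day libraries lay lowest, at -9 to 4, those of 10 days at 21.2 to 33.8, those of 40 days at 55.8 to 75 and those of 45 days at 26.7 to 61.3. Of the 17 libraries of 50 to 80 days, 14 lay at or above 80.

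Genes higher at 35 than at 30 days changed less. Of the 1216, 63 were at least 4-fold higher, against 299 of the 1103 lower ones. Of the 63, 44 (69.8%) were female-biased and 1 (1.6%) male-biased, against 11.2% and 13.7% of all genes tested. Their median was 8.73, 10 and 8.38 CPM at 35 days and 2.34, 2.61 and 1.15 CPM at 30 days. It was 4.43, 4 and 3.83 CPM at 25 days and 6.18 and 8.62 CPM at 20 days. The 63 were chosen by the contrast of 35 with 30 days, which tends to put other ages in between. By these medians the 25-day libraries lay between those of 30 and 35 days, and 1 library of 20 days lay within the range of 35 days.

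Some genes named as higher at 35 days rest on a single library. They had the largest log2 change among called genes with a mean log2 CPM of at least 3 and no overlap of the 3 libraries of each age, while 4 genes outside those limits were called at least 16-fold higher. APZ42_006865 had 40, 56.6 and 986 CPM at 35 days and 24.7, 38.7 and 25.6 CPM at 30 days (log2 change 3.57 ± 1, edgeR adjusted p = 0.0419). APZ42_010094 had 12.5, 22 and 264 CPM at 35 days and 9.42, 12.5 and 8.75 CPM at 30 days (log2 change 3.25 ± 0.94, edgeR adjusted p = 0.0444). Replicate 3 of 35 days was the high library in both, and the other 2 libraries of 35 days lay within the range of the libraries of 20 to 30 days. Without that library the log2 changes were 0.71 and 0.76 and the adjusted p-values 0.263 and 0.276. Over the alternatives the adjusted p ran between 0.0204 and 0.288 for APZ42_006865 and between 0.00881 and 0.276 for APZ42_010094. Leaving out any other single library of 30, 25 or 20 days also put both above the threshold. One 75-day female reached 4284.5 CPM for APZ42_006865, while the 28 other females had a median of 20.5 CPM.

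At 20 days a smaller set of genes was high. Of the 26 genes lower at 25 than at 20 days, 21 were at least 16-fold lower, and their median was 0.56, 0.761 and 0.451 CPM at 25 days, against 37.1 and 112 CPM at 20 days. At 35 days it was 0.578, 0.34 and 0.493 CPM, and at 30 days 0.586, 0.454 and 0.691 CPM. The set was chosen by the contrast of 25 with 20 days, so its values at those 2 ages are a description. At 30 and 35 days, ages outside that contrast, its median was at most 0.691 CPM. Not all of its genes were low there. At or above 5 CPM were 6 of the 21 in each 30-day library, 1 in each 35-day library and 0 in each 25-day library. The set shares 6 genes with the 82 genes described above (28.6% of the 21 and 7.3% of the 82), where 16785 genes were tested. Among the 28 other females 1 library, replicate 2 of 40 days, had a high median, at 163 CPM, and the next had 1.38 CPM. The highest male median was 2.15 CPM. Still, 5 to 7 of the 21 genes were at or above 5 CPM in each male. In the other females except that 40-day library, 0 to 7 were. In the other libraries 10 of the 21 genes were female-biased and 5 male-biased, where 11.2% and 13.7% of all genes tested were. Since those lists used the high 40-day library, the numbers share it with this description.

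APZ42_014721 had 0.967, 0.381 and 1.62 CPM at 25 days and 127 and 843 CPM at 20 days (log2 change -8.84 ± 0.97, edgeR adjusted p = 0.00391). APZ42_014720 had 0.509, 0.285 and 1.58 CPM at 25 days and 71.4 and 547 CPM at 20 days (log2 change -8.46 ± 1, edgeR adjusted p = 0.00593). Neither exceeded 0.921 CPM at 30 or 35 days. In replicate 2 of 40 days they reached 1206.5 and 728.93 CPM. The adjusted p was 0.0548 for APZ42_014721 and 0.0823 for APZ42_014720 without replicate 1 of 25 days, the highest values over the alternatives (the lowest were 1.3e-09 and 4.12e-07).

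Genes higher at 25 than at 20 days numbered 3. APZ42_031918 had 24.4 ± 10.8 CPM at 25 days (SD, n = 3) and 1.22 and 1.49 CPM at 20 days (log2 change 4.14 ± 0.68, edgeR adjusted p = 0.0487), and 12.2 ± 5.09 CPM at 30 days and 4.55 ± 2.79 CPM at 35 days (SD, n = 3 each). APZ42_015843, a female-biased gene, had 23.8 ± 7.88 CPM at 25 days (SD, n = 3) and 4.12 and 3.08 CPM at 20 days (log2 change 2.7 ± 0.41, edgeR adjusted p = 0.0323). It had 16.1 ± 3.35 CPM at 30 days and 9.22 ± 3.73 CPM at 35 days (SD, n = 3 each). Both were highest at 25 days. Leaving out either 20-day library put the adjusted p at 0.405 or 0.397 for APZ42_031918 and at 0.156 or 0.371 for APZ42_015843, within ranges over the alternatives of 1.62e-09 to 0.405 and 3.08e-08 to 0.371.

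Under the same limits, which leave out 1 gene called at least 16-fold lower, the 2 genes with the largest falls between 30 and 25 days were APZ42_014304 and APZ42_014320, already the nearest to a call in the pooled comparison. APZ42_014304 had 3.77 ± 1.86 CPM at 30 days and 31.0 ± 3.49 CPM at 25 days (SD, n = 3 each; log2 change -2.99 ± 0.31, edgeR adjusted p = 0.00257). APZ42_014320 had 5.45 ± 2.26 CPM at 30 days and 42.5 ± 4.77 CPM at 25 days (SD, n = 3 each; log2 change -2.92 ± 0.29, edgeR adjusted p = 0.00179). Both calls held under each alternative tried, and the genes differed little between 35 and 30 days (log2 changes 0.18 ± 0.3 and 0.02 ± 0.28).

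In males of the same ages 2 of 16182 genes passed (0.0124%), 1 higher (0.00618%) and 1 lower (0.00618%) at 30-35 days. APZ42_002290 had 269, 282 and 290 CPM in males of 35 days and 222, 265 and 269 CPM in males of 30 days. It had 145 and 98.8 CPM in males of 25 days and 90.5 and 81.4 CPM in males of 20 days. The male groups did not overlap (log2 change 1.33 ± 0.17, edgeR adjusted p = 0.0435). In females it had 176, 141 and 243 CPM at 35 days and 54.1, 82 and 71.5 CPM at 30 days, against 80.8, 84.9 and 83.9 CPM at 25 days and 145 and 139 CPM at 20 days, so the female groups overlapped. The male count was 76 without replicate 1 of 35 days, 1 without replicate 2 of 20 days and 2 without replicate 1 of 25 days, and 0 without any other single library.

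The change between the pooled ages was also compared between the sexes, as the female log2 change minus the male one. Of 17198 genes 1 passed (0.00581%), APZ42_014224, at -2.19 ± 0.3 (edgeR adjusted p = 0.0067). In females it had 30.7, 33.4 and 29.4 CPM at 35 days and 32.1, 52 and 39 CPM at 30 days, against 48.9, 51.4 and 53.3 CPM at 25 days and 80.9 and 53.7 CPM at 20 days. In males it had 262, 268 and 257 CPM at 35 days and 181, 220 and 204 CPM at 30 days, against 121 and 83.6 CPM at 25 days and 50.8 and 62.3 CPM at 20 days. Males of 30-35 days lay above all males of 20-25 days, while 5 of the 6 females of 30-35 days lay below all 5 females of 20-25 days. The adjusted p was 0.0566 with spike-in library sizes and 0.0671 with a term for the spike-in cluster, in a range of 1.93e-08 to 0.111 over all alternatives. Between 2 and 7 genes passed without replicates 1 or 3 of 30-day females, 1 or 2 of 20-day females, 1 of 35-day males, 1 of 20-day males or 1 of 25-day males.

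Neighbouring steps of age in females were tested in a fit of 4 age bins from 10 to 45 days (16412 genes), which shares its libraries between steps. The step before, 20-25 against 10-15 days, had 1555 genes higher (9.47%) and 1587 lower (9.67%), 19.1% in all, and the step after, 40-45 against 30-35 days, had 66 higher (0.402%) and 97 lower (0.591%), 0.993% in all, while 30-35 against 20-25 days again had 0 (1425 at an unadjusted p under 0.05; 0 with the 11 libraries by limma-voom and 79 by DESeq2). The log2 change of the step differed from that of the step before in 79 genes (0.481%), 11 higher (0.067%) and 68 lower (0.414%), and from that of the step after in 129 genes (0.786%), 96 higher (0.585%) and 33 lower (0.201%). The counts rest on single libraries. For the step before they were 1662, 1566 and 1569 without replicates 1, 2 and 3 of 25 days and 1914 without replicate 1 of 15 days. For the step after they ran between 5 (without replicate 3 of 45 days) and 987 (without replicate 2 of 35 days), and moved by over 1.5 times without any one library except replicate 1 of 25 days, replicate 2 of 10 days, replicate 1 of 30 days, replicate 3 of 15 days and replicate 1 of 45 days. The difference from the step before was 25, 23 and 20 genes without replicates 1, 2 and 3 of 25 days, 277 and 441 without replicates 1 and 3 of 30 days, 377 without replicate 2 of 20 days and 52 without replicate 1 of 35 days. It was 178 without replicate 1 of 10 days, 39 without replicate 3 of 15 days and 124 without replicate 2 of 40 days. The difference from the step after was 0 without replicate 1 of 35 days, 878 without replicate 2 of 35 days, and moved by over 1.5 times without any one library except replicate 1 of 10 days (91 genes).

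Measures of the libraries as wholes did not separate the pooled groups either. The block of 7 abundant genes that vary together across the series took 11.4%, 9.8% and 1.03% of the counts at 35 days and 12.3%, 27.8% and 26.6% at 30 days, against 18.5%, 29.9% and 9.23% at 25 days and 16.7% and 8.11% at 20 days. Replicate 3 of 35 days had the lowest share, and the groups overlapped (means 14.8% ± 10.4 and 16.5% ± 8.76, SD, n = 6 and 5). Two-sided exact permutation tests of 6 measures (spike-in share, abundant block share, genes at 1 CPM or more, gene counts, sex score, spike-in ratio) over 462 arrangements gave p between 0.0866 and 0.794. The lowest was for the spike-in ratio, -0.132 ± 0.256 at 30-35 days and 0.11 ± 0.0608 at 20-25 days (log2, SD, n = 6 and 5), with a Benjamini-Hochberg adjusted p of 0.364 in the exact permutation tests. The share of that technical difference in the gene results was not tested beyond the cluster values given.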

How the data were processed

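Whole animals were extracted, and libraries of the Illumina TruSeq mRNA kit were read as pairs of 100 bases, per the labels' protocols. The submitters' processing notes name TopHat2 2.1.1 and DESeq2 1.20. The counter, its strand setting, the build and the annotation were details not given in the sources used here, and counts of overlapping or near-identical genes are therefore uncertain. The deposited values are raw whole counts for 26646 gene IDs and 7 spike-in rows, in 80 columns. Spike-in rows stayed out of library sizes and tests, and 3 columns of samples marked as mislabelled were not used. A pair of technical runs was summed, which left 76 libraries with a group. The authors' deposited tables of comparisons were not used here.

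Tests used edgeR 4.0.16 under R 4.3.3 (TMM, filterByExpr, quasi-likelihood F-test, Benjamini-Hochberg over all genes tested, adjusted p under 0.05). The main comparison was fitted on 2 age groups, single steps on 4 ages, the sex difference as an interaction at matched ages, and neighbouring steps on 4 age bins. The SE given with an edgeR log2 change is its size divided by the square root of the F value, an approximation. Log2 CPM used a prior count of 2. Exact permutation tests compared library measures. Named genes were the 2 with the largest log2 change per direction among called genes with mean log2 CPM of at least 3 (without overlap in 2-group comparisons). For the main comparison, which had none, 4 genes were named by smallest p. Alternatives were RLE scaling, spike-in library sizes, no filter, DESeq2 1.42.0, limma-voom (limma 3.58.1), a replicate block, library size or spike-in cluster as a covariate, the larger cluster alone, other samples in the fit, no abundant block and each library left out. Cluster fits of single steps and the alternatives for males were added after seeing the data. The members and gene lists were chosen with earlier results of these data known. The fits were tested on simulated data. No libraries had identical counts (highest correlation of log2 CPM 0.989). Intervals cover counting error only. Figures were drawn with matplotlib 3.10.9.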

Additional observations from a re-analysis of the deposited data

Results flagged for a closer look

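Of 52 groups of 5 or 6 libraries checked for a library far from the others, 7 held one by Dixon's test. The usual chance rate of about 1 of 20 groups does not apply here. The groups share libraries, pool 2 ages, and include principal components and genes named for large changes. The 7 are therefore a description. Replicate 3 of 30 days lay far from the other 5 libraries of 30-35 days on the first principal component (110.3) and in its median distance to the other libraries (1.393, root mean square of log2 CPM). Replicate 1 of 20 days lay below the other 4 libraries of 20-25 days on the second principal component (-35.7), and had the highest APZ42_014224 (6.34 log2 CPM). Replicate 2 of 20 days had the highest summed CPM of genes almost limited to females (1790.0). Replicate 3 of 35 days had the highest APZ42_006865 (9.95 log2 CPM) and APZ42_010094 (8.04 log2 CPM). The female minus male difference of the 30-35 against 20-25 day change of APZ42_014224 was -2.19 on the log2 scale, by the interaction test of edgeR. What sets these libraries apart was not tested.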

How the results depend on the processing

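The pooled comparison gave 0 calls with relative log expression scaling, no filter, limma-voom, library size or the spike-in cluster as a covariate, within the larger cluster, without the abundant block, without the 35-day libraries and in the fit of 4 bins. It gave 17 with spike-in library sizes, 79 with DESeq2, 29 with 4 ages as a factor and 19 with all 39 females. It gave 6 without the 20-day, 19 without the 25-day and 18 without the 30-day libraries. For 35 against 30 days the one alternative beyond 1.5 times was spike-in sizes (735). For 30 against 25 days the counts were 213 with no filter, 513 with DESeq2, 700 with limma-voom, 236 with the cluster as a covariate and 311 within the larger cluster. For 25 against 20 days they were 708 with spike-in sizes, 70 with no filter, 235 with DESeq2, 156 with limma-voom and 84 within the larger cluster. Males had 0 with spike-in sizes and with the cluster as a covariate, 4 with no filter, 237 with DESeq2 and 97 with limma-voom. The sex difference had 2, 83, 5 and 0 with spike-in sizes, DESeq2, limma-voom and the cluster as a covariate. The step before had 1519 with spike-in sizes, 7862 with limma-voom and 454 with the cluster as a covariate. The step after had 0, 94, 881 and 347 with spike-in sizes, no filter, DESeq2 and the cluster as a covariate. The difference from the step before was 176, 12, 487, 2558 and 2 genes with relative log expression scaling, spike-in sizes, DESeq2, limma-voom and the cluster as a covariate, and that from the step after was 28, 0, 16, 567, 64 and 14 with relative log expression scaling, spike-in sizes, no filter, DESeq2, limma-voom and the cluster as a covariate. The cause of these differences was not tested.

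Leaving out 1 library at a time gave 0 to 5 calls for the pooled comparison, 1325 to 2389 for 35 against 30 days, 9 to 269 for 30 against 25 days, 0 to 116 for 25 against 20 days, 0 to 76 in males and 1 to 7 for the sex difference. It gave 1566 to 3766 for the step before, 5 to 987 for the step after, 20 to 441 for the difference from the step before and 0 to 878 for that from the step after. The differences in measures between 30-35 and 20-25 days ran from -0.839 to 0.11 (log2 abundant block share), -0.231 to 0.0349 (log2 gene counts) and -4.69 to 8.58 (sex score). Within the larger cluster they were 0.0217 (log2 block share), 8.4 (genes at 1 CPM or more) and 0.0965 (log2 gene counts), each of opposite sign to the difference over all 11 libraries. Over the named genes 319 of the single-gene results kept their call, 65 lost it and 16 gained it, and none changed sign. The main fits did not pair libraries by replicate number. Deviations of same-numbered libraries correlated above 0.1 in 4 of 15 pairs (median 0.042, -0.13 to 0.365). Those of differently numbered libraries did so in 2 of 30 pairs (median -0.02, -0.365 to 0.178). Whether replicate numbers pair the samples was not tested. With the replicate number as a block the counts were 0 for the pooled comparison, 1937, 166 and 25 for the single steps from latest to earliest, 0 in males and 0 for the sex difference, 2688 and 18 for the steps before and after, and 66 and 6 for the differences from them.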
